A study of Homo sapiens with 26 samples.

Results

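The IL-6 family of cytokines was followed in A549 cells, an established human lung adenocarcinoma line, during a time course with TGF-beta 1. The group comprised 9 genes: the ligands IL11, LIF, CLCF1 and IL6, the receptor subunits IL6R, IL6ST, LIFR and OSMR, and the feedback inhibitor SOCS3. Its members were all probe sets annotated with 1 of these symbols, 25 of the 54675 on the array. Of these, 22 were tested because 2 or more arrays had them above the median of the array, and each gene kept at least 1. The symbols alone chose the members, but a set can pass this filter through a single group in which it is high, as one of IL11 below the median in untreated cells could.

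Cytokines of this family signal through receptors that share the subunit IL6ST, also called gp130. IL-6 and IL-11 bind their own receptors, IL6R and IL11RA, which then pair with IL6ST. LIF uses IL6ST together with LIFR, and oncostatin M uses IL6ST together with OSMR or LIFR. The receptors activate JAK kinases and the transcription factor STAT3, and SOCS3, a STAT3 target, binds IL6ST and dampens the signal. In the lung the family is known for acute-phase and repair responses of the epithelium, and IL-11 also for its ties to fibrosis.

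Expression was profiled with 26 HG-U133 Plus 2.0 arrays from Affymetrix. All cells had been kept without serum for 24 h, and those treated were then given 5 ng/mL of TGF-beta 1 from pig, a cytokine that drives epithelial cells towards a mesenchymal state. The groups were untreated cells and cells harvested 0.5, 1, 2 and 4 h, or 8, 16, 24 and 72 h, after TGF-beta 1 was added. Each of 3 repeats of the experiment gave 1 array per group, except that 2 h has 2 arrays, because the RNA of the third repeat was poor. No untreated cells kept for the same times were among the groups, so treatment and time in culture cannot be told apart.

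Levels are log2 values, where 6.64 stands for no signal at all, 5.64 for the floor of the scale and 7.96 for the median probe set. An offset of 100 inside the log makes the fold changes of weak genes too small. Values of single arrays are listed in the order of experiments 1, 2 and 3. A change is called where the adjusted p of limma, corrected over the 34765 probe sets tested, was under 0.05, and it is given ± limma's standard error. Between 28834 and 32875 probe sets were detected per array (median 31262), and arrays of 1 group correlated across probe sets at a median r of 0.974 (lowest 0.957, 25 pairs). The actin 3'/5' ratio, which reflects the integrity of the RNA, was 0.975 to 1.16. It was 0.975, 1.03 and 1.005 at 24 h, against 1.09, 1.07 and 1.13 in untreated cells, and its part in the results was not tested. Among 5 epithelial markers, 4 were above the median in untreated cells (KRT8 14.57, KRT18 15.21, CDH1 13.09 and EPCAM 11.16), and KRT19 was near zero signal at 6.81. Of 5 alveolar type II markers, NKX2-1 (6.27) and SFTPD (6.57) lay below zero signal and SFTPB (7.41) below the median, whereas SFTPC (8.28) and ABCA3 (8.35) lay above it. COL1A2, PTPRC and CDH5, defining genes of fibroblasts, leukocytes and endothelium, lay at 6.96, 6.98 and 6.74 in untreated cells. COL1A2 and PTPRC were the lowest of their marker lists. In each of these lists 1 gene lay above the median: THY1 of the fibroblast list at 8.01, 1 of 5 leukocyte genes at 8.27, and PECAM1 of the endothelial list at 8.21. Of the marker lists of these cell types 3, 3 and 1 genes were tested, and limma called 0 of them at each time (0 at an unadjusted p under 0.05). The treatment was seen in a known target at 24 h, when SMAD7, an inhibitory SMAD, rose by 2.53 (log2 change, adjusted p 1.09e-05). CDH1 fell by 3.34 at 24 h (adjusted p 1.37e-12) and EPCAM by 1.97 (adjusted p 8.92e-06). Of the 4 epithelial markers tested these were the only 2 called at 24 h, and KRT8 and KRT18 were not. At 72 h all 4 were called lower, beside 35.6 percent of all genes called in either direction. These are measurements of whole cultures, in which fewer cells of a kind and less RNA per cell cannot be told apart.

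The promoters of IL11 and IL6 are shown because these ligands marked the early and the late end of the family's response. Both are 250 bases before to 50 bases after the annotated start site, from RefSeq on GRCh38.p14, read 5′ to 3′ on the gene's strand. The IL11 window is chr19:55370414-55370713 on the minus strand, and the capitals mark its match to the AP-1 motif TGANTCA, which begins at position -96 from the start site. The IL6 window is chr7:22726950-22727249 on the plus strand, and the capitals mark its match at position -12, on the opposite strand, to the SMAD motif CAGACA.
IL11 promoter: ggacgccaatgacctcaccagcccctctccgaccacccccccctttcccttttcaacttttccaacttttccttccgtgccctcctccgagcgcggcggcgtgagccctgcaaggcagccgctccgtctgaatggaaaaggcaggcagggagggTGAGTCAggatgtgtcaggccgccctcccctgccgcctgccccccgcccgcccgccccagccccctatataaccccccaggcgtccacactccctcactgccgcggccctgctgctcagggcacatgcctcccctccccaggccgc
IL6 promoter: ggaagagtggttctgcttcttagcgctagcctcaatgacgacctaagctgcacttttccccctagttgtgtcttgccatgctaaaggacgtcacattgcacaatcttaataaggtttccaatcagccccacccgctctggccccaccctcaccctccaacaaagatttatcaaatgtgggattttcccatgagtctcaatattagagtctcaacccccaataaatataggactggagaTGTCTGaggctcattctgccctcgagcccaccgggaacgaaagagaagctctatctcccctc
Of 35116 promoters in the RefSeq table, 7.71 percent held TGANTCA and 16.9 percent held CAGACA, with both strands searched. The STAT motif TTCNNNGAA, sought on both strands, was in 7.66 percent of all promoters, and the TATA motif TATAAA, sought on the promoter's own strand, in 7.33 percent. No match to these letters was found in the windows of IL11 and IL6. Variants of the motifs were not sought, so their absence is not shown. The windows of 7 of the 9 genes were searched, and those of LIF and CLCF1 are not in the table. Among the other genes searched, 1 AP-1 match lay in the window of IL6R and 1 in that of OSMR. The LIFR windows held SMAD, STAT and TATA matches. A match is a description of the letters, and binding was not measured.

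Among the ligands, IL11 and LIF were called higher, CLCF1 was called higher at 16, 24 and 72 h but not by the F test over the time course, and IL6 was called higher at 72 h only. The receptor subunits IL6R, IL6ST and LIFR had calls in the lower direction, whereas the only calls of OSMR against untreated cells were gains of 1 probe set. SOCS3 was called by the F test and at no single time. By the F test over all 8 times, 17 of the 22 probe sets changed, 7 of 9 genes by their representative probe set, beside 40.5 percent of all probe sets tested. The 5 without a call were those of CLCF1, 1 of IL6R, both of OSMR and 1 of SOCS3. A gene is represented by the set of highest mean level, preferring IDs without the endings of cross-hybridizing sets.

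**Figure D1:**
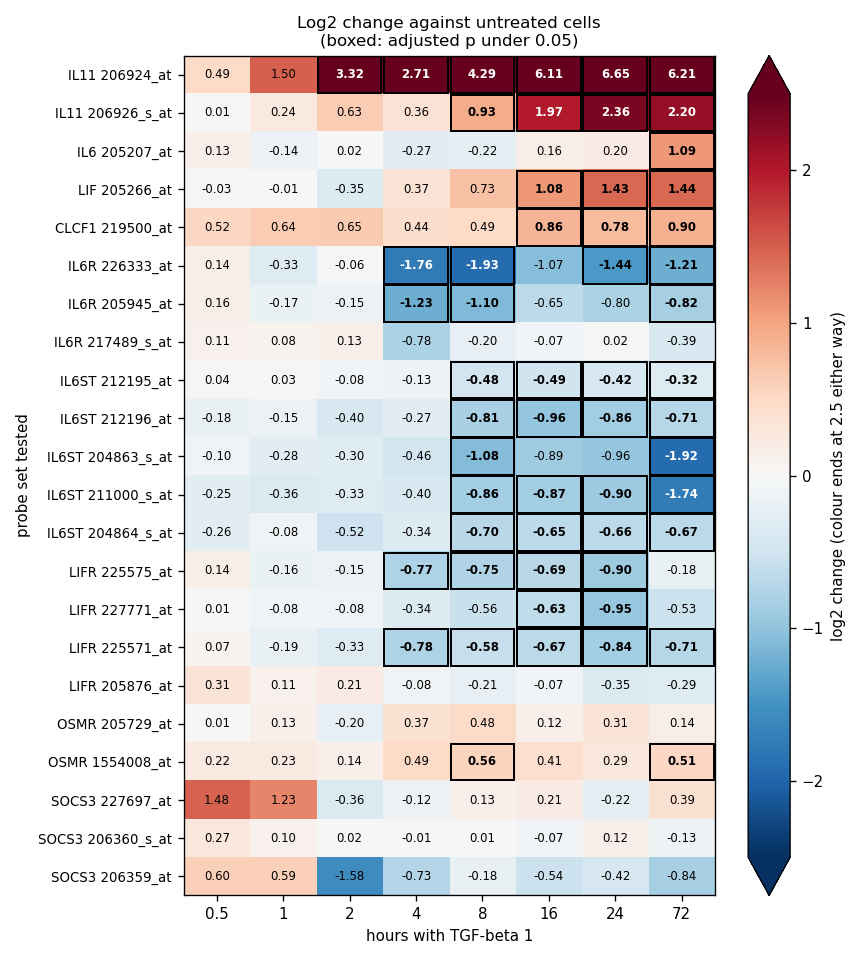
Log2 change of the 22 tested probe sets (rows) against untreated cells at each time with TGF-beta 1 (columns, hours), with boxes around changes called by limma. IL11 reads 6.65 at 24 h, and the rows of IL6ST and LIFR hold only falls among their boxes.

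The calls built up with time. At 0.5 h limma called 0 of 22 probe sets (2 at an unadjusted p under 0.05), beside 0.129 percent of all. At 1 h it called 0 again (3 unadjusted), beside 0.498 percent of all probe sets and 0.548 percent of all genes by representative. At 2 h the probe set 206924_at of IL11 alone was called, beside 2.28 percent, and with the experiment as a block the count was 2. At 4 h 1 probe set was higher and 4 were lower, beside 6.79 percent called in either direction. At 8 h 3 were higher and 9 lower, beside 18 percent, and at 16 h 4 were higher and 7 lower, beside 27.5 percent. The 9 lower sets at 8 h were of IL6R, IL6ST and LIFR only. By representative, 4 of 9 genes were called at 8 h, beside 2954 of 14231 genes in all. At 16 h 5 of 9 were, beside 4389 of 14231.

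At 24 h 4 member probe sets were higher, beside 13.9 percent of all, and 8 were lower, beside 14.7 percent, so that 12 of 22 were called where 28.5 percent of all probe sets were. By gene, 3 of 9 were higher and 3 lower, beside 32.2 percent of all genes. The median log2 change of the 22 was -0.39, and that of all probe sets -0.01. By representative, the sign was the other: the median of the 9 genes was 0.20, against -0.04 for all genes. At 72 h 6 were higher, beside 16.7 percent, and 8 were lower, beside 16.5 percent, 14 in all beside 33.2 percent. The median of the 22 was then -0.31, against -0.0044 for all probe sets. That of the 9 genes by representative was 0.39, against -0.02 for all genes, so the falls in the medians reflect how many probe sets each gene has. The shares of members called were above those of all probe sets at these times, which describes a list of correlated probe sets and was not tested. All comparisons with untreated cells share the same 3 untreated arrays.

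IL11, the ligand of IL11RA and a cytokine known from fibrosis and bone, made the largest change of the family. Its probe set 206924_at read 7.38, 6.92 and 7.19 in untreated cells, 7.17, 7.22 and 8.57 at 0.5 h, and 8.16, 8.96 and 8.85 at 1 h. It read 10.45 and 10.50 at 2 h, 10.44, 10.65 and 8.51 at 4 h, and 11.86, 12.19 and 10.31 at 8 h. At 16 h it read 13.37, 13.37 and 13.08, at 24 h 13.89, 13.93 and 13.60, and at 72 h 13.44, 13.50 and 13.19. On this probe set the untreated arrays lay below the median probe set, and every array from 1 h onwards lay above all 3 untreated arrays. At 0.5 h only experiment 3 did. The mean difference signal before the log was 14300.0 at 24 h, against 44.3 in untreated cells.

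The log2 change was 3.32 ± 0.50 at 2 h (adjusted p 0.000526) and 2.71 ± 0.45 at 4 h (adjusted p 0.000412). It was 4.29 at 8 h, 6.11 at 16 h and 6.65 ± 0.45 at 24 h, 100.1-fold on this scale (adjusted p 1.13e-10), and 6.21 at 72 h (adjusted p 2.26e-10). By group means, IL11 was 9.96-fold up at 2 h, 6.53-fold at 4 h and 19.6-fold at 8 h. Its highest mean was at 24 h. The 2 h group has no array of experiment 3, so the means at 2 and 4 h rest on unlike sets of experiments. In experiment 1 the gain over its own untreated array was 3.08 at 2 h and 3.07 at 4 h. In experiment 2 it was 3.58 and 3.73. At 1 h the change of 1.5 ± 0.45 was not called (adjusted p 0.22), although no array overlapped. The lowest arrays at 4 and 8 h were those of experiment 3, where the gain over the same experiment's untreated array was 1.32 at 4 h and 3.12 at 8 h. In experiment 1 these gains were 3.07 and 4.48, and in experiment 2 they were 3.73 and 5.28. At 24 h the gains were 6.52, 7.01 and 6.41. With the untreated arrays of experiments 2 and 3 exchanged, the gains in experiment 2 were 3.46, 5.00 and 6.74 at 4, 8 and 24 h, and those in experiment 3 were 1.59, 3.39 and 6.68.

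The other IL11 probe set, 206926_s_at, started from 8.45, 8.71 and 8.68 in untreated cells and reached 10.88, 11.04 and 10.99 at 24 h. It was called from 8 h onwards, at 0.93 (8 h), 1.97 (16 h), 2.36 ± 0.17 (24 h, adjusted p 2.33e-10) and 2.20 (72 h). Both probe sets agreed on the direction at each of these times and on the peak at 24 h, and differed in size. All 6 called changes of 206924_at against untreated cells held in all 42 alternative settings. Across these, the change at 24 h ranged from 4.50, averaged with the other probe set, to 7.27, with an offset of 50 inside the log.

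**Figure D2:**
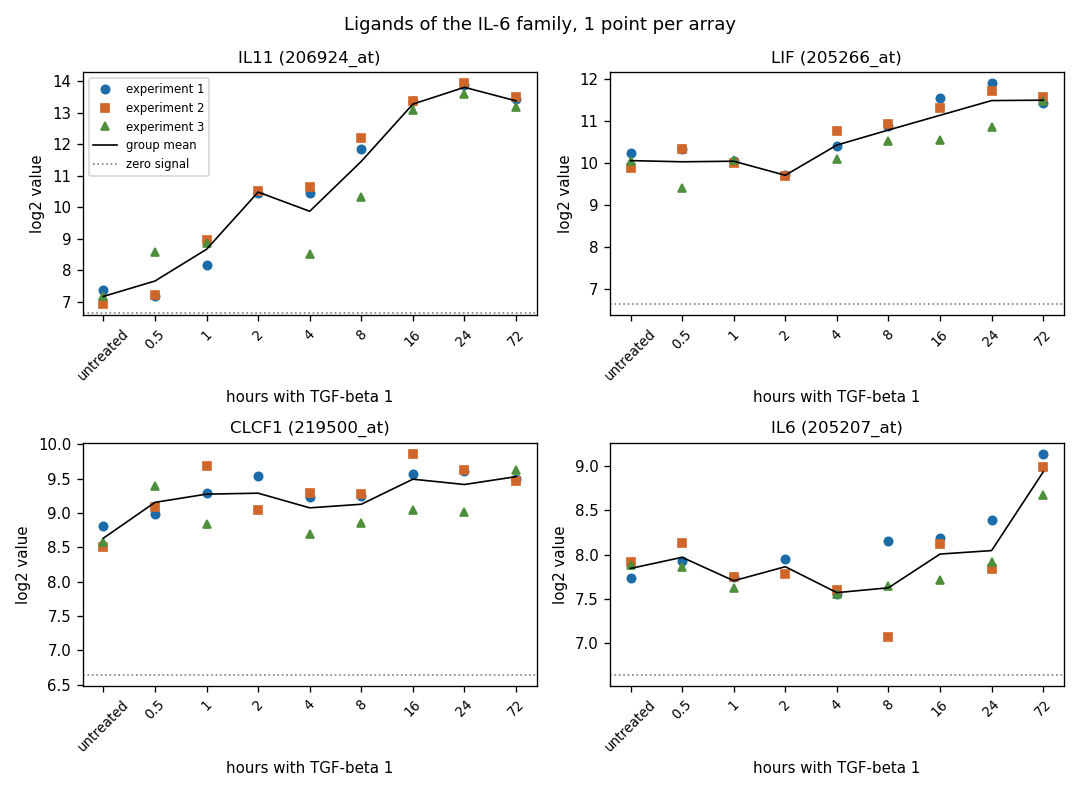
Log2 values of the representative probe sets of IL11, LIF, CLCF1 and IL6 by hours with TGF-beta 1, with 1 point per array (shape and colour give the experiment), a line through group means and a dotted line at zero signal. IL11 climbs from near zero signal to 13.81 at 24 h, LIF is higher from 16 h, and IL6 stands out only at 72 h, each on its own vertical range.

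LIF, the ligand of LIFR and a factor named for its effect on leukaemia cells, was present before treatment and rose later than IL11. Its probe set 205266_at read 10.23, 9.88 and 10.05 in untreated cells, 10.32, 10.34 and 9.41 at 0.5 h, 10.05, 10.00 and 10.07 at 1 h, and 9.72 and 9.69 at 2 h. It read 10.41, 10.77 and 10.09 at 4 h, 10.88, 10.93 and 10.53 at 8 h, and 11.53, 11.31 and 10.55 at 16 h. It read 11.89, 11.71 and 10.84 at 24 h and 11.43, 11.58 and 11.46 at 72 h. From 8 h every array lay above all untreated arrays, and both arrays at 2 h lay below them. The lower values at 16 and 24 h were those of experiment 3, which had caught up at 72 h.

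LIF rose by 1.08 ± 0.26 at 16 h (adjusted p 0.00282), by 1.43 at 24 h, 2.69-fold (adjusted p 0.000158), and by 1.44 at 72 h (adjusted p 0.000129). At 8 h the change of 0.73 missed the threshold (adjusted p 0.0548), and with the experiment as a block it was called (adjusted p 0.00816). The difference of -0.35 at 2 h was not called (adjusted p 0.731). Within experiments the gain at 24 h was 1.66, 1.83 and 0.79, and with the untreated arrays of experiments 2 and 3 exchanged it was 1.66 in experiment 2 and 0.96 in experiment 3.

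CLCF1, a cytokine that acts on nerve and B cells, changed little. Its probe set 219500_at read 8.81, 8.51 and 8.58 in untreated cells, 9.58, 9.86 and 9.05 at 16 h, 9.61, 9.62 and 9.01 at 24 h, and 9.50, 9.47 and 9.63 at 72 h. From 0.5 to 8 h its group means lay between 9.08 and 9.29. Apart from 1 array at 4 h (8.69, experiment 3), every treated array lay above all untreated ones. The gains were called at 16 h (0.86 ± 0.23, adjusted p 0.006), 24 h (0.78, adjusted p 0.0114) and 72 h (0.90, adjusted p 0.00354). The F test over the time course did not call it (adjusted p 0.0555). The call at 16 h was lost without replicate 2 of that group (adjusted p 0.051), and the call at 24 h without replicate 1 (0.0583) or replicate 2 (0.0562), and the call at 72 h held throughout.

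IL6, the cytokine that gives the family its name and a main inducer of the acute-phase response, stayed low for most of the course. Its probe set 205207_at read 7.73, 7.92 and 7.88 in untreated cells, 7.56, 7.60 and 7.55 at 4 h, and 8.39, 7.84 and 7.91 at 24 h. At 72 h it read 9.13, 8.99 and 8.68, above every array of the other 8 groups. Before 72 h all group means lay between 7.57 and 8.05, close to the median of all probe sets. The change at 72 h was 1.09 ± 0.21, 2.13-fold (adjusted p 0.00024), and it was called in all 41 alternatives that tested it. IL6 was not called at any other time. It differed between 72 and 24 h by 0.89 (adjusted p 0.0107), and this call was lost without replicate 1 (0.0581) or replicate 2 (0.0504) of the 72 h group and without experiment 3 (0.0536). The 3 arrays that carry an r in the deposited column names are replicate 3 at 8 h and replicates 1 and 3 at 24 h. Without them 24 h keeps a single array, and the difference between 72 and 24 h was 1.09.

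IL6R, the receptor that makes a cell responsive to IL-6, was called lower at 4, 8, 24 and 72 h. Its probe set 226333_at read 8.27, 9.35 and 9.10 in untreated cells, 8.47, 8.69 and 9.99 at 0.5 h, 8.51, 9.28 and 7.95 at 1 h, and 8.95 and 8.75 at 2 h. It read 6.29, 7.17 and 7.97 at 4 h, 6.63, 6.38 and 7.92 at 8 h, and 7.88, 7.43 and 8.19 at 16 h. It read 6.93, 7.47 and 8.01 at 24 h and 7.38, 7.67 and 8.03 at 72 h. From 4 h every array lay below all untreated arrays, and 3 of them (6.29, 6.63 and 6.38) were below zero signal. Experiment 3 kept the highest value in each of these 5 groups.

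The log2 change of IL6R was -1.76 ± 0.46 at 4 h (adjusted p 0.0178) and -1.93 at 8 h (adjusted p 0.00394). It was -1.44 at 24 h (adjusted p 0.0197) and -1.21 at 72 h (adjusted p 0.0437). The value at 16 h, -1.07, was not called (adjusted p 0.0863), and was called with the experiment as a block (adjusted p 0.0298). Between 4 and 1 h the difference was -1.44, not called (adjusted p 0.16), and called with the block (adjusted p 0.0445). The call at 8 h held in all 42 alternatives, whereas 5 ended the call at 4 h, 6 that at 24 h and 13 that at 72 h. Without untreated replicate 2 the adjusted p was 0.0826 at 4 h, 0.0878 at 24 h and 0.156 at 72 h. Without untreated replicate 3 it was 0.0662, 0.0619 and 0.114 at the same times. Without replicate 1 or replicate 2 of the 4 h group it was 0.136 or 0.0589 at 4 h, and without replicate 1 of the 24 h group 0.104 at 24 h.

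A second probe set of IL6R, 205945_at, was called lower at 3 times. It read 6.66, 7.19 and 7.81 at 4 h and 7.67, 7.51 and 7.70 at 72 h, against 8.25, 8.80 and 8.30 in untreated cells, with no overlap. It fell by 1.23 at 4 h (adjusted p 0.0166), by 1.10 at 8 h (adjusted p 0.0159) and by 0.82 at 72 h (adjusted p 0.0469). Its values of -0.65 at 16 h (adjusted p 0.136) and -0.80 at 24 h (adjusted p 0.0602) were not called. The third one, 217489_s_at, was not called at any time, and its untreated arrays, at 7.80, 7.93 and 7.37, were themselves near the median.

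**Figure D3:**
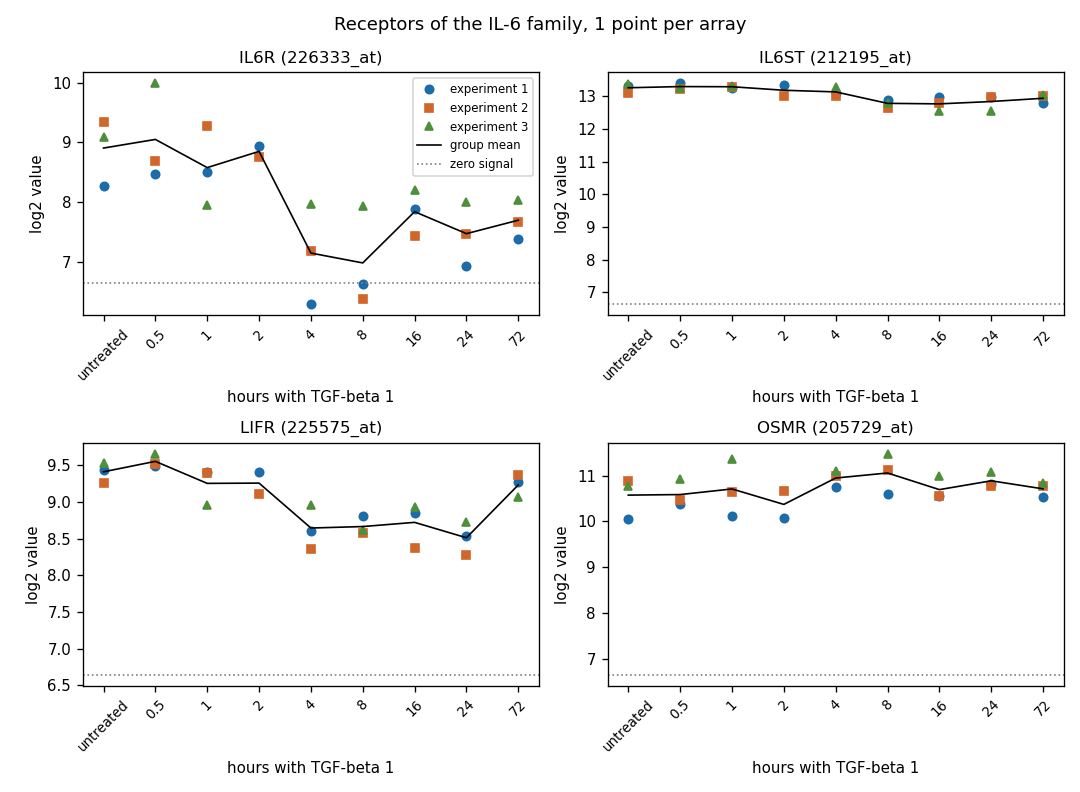
Log2 values of the representative probe sets of IL6R, IL6ST, LIFR and OSMR by hours with TGF-beta 1, with 1 point per array (shape and colour give the experiment), a line through group means and a dotted line at zero signal. IL6R drops at 4 h, LIFR drops at 4 h and is back near the untreated level at 72 h, and each panel has its own vertical range.

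IL6ST, the signal-transducing subunit shared by the whole family, was far above zero signal and fell by a small amount. Its representative 212195_at read 12.90, 12.65 and 12.81 at 8 h, against 13.32, 13.10 and 13.37 in untreated cells. It read 12.97, 12.79 and 12.56 at 16 h, 12.98, 12.996 and 12.56 at 24 h and 12.79, 12.998 and 13.04 at 72 h. All arrays from 8 h onwards lay below all untreated ones, by a narrow margin at 72 h. The log2 change was -0.48 ± 0.12 at 8 h (adjusted p 0.00711), -0.49 at 16 h (adjusted p 0.0034), -0.42 at 24 h (adjusted p 0.0107) and -0.32 at 72 h (adjusted p 0.0445). The call at 8 h held in all 42 alternatives. Without experiment 3 the changes were -0.33 at 16 h (adjusted p 0.053), -0.22 at 24 h (adjusted p 0.192) and -0.32 at 72 h (adjusted p 0.0586). The call at 24 h was also lost without untreated replicate 3 (0.051) and without replicate 3 of the 24 h group (0.0948). Without the arrays marked r, which leaves a single array at 24 h, the change at 24 h was -0.27. The call at 72 h was lost in 12 of 42 alternatives, with adjusted p up to 0.189 (without replicate 1 of the 72 h group).

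The other tested probe sets of IL6ST fell as well, with a spread of sizes. At 24 h 212196_at changed by -0.86 (adjusted p 0.000969), 211000_s_at by -0.90 (adjusted p 0.0206) and 204864_s_at by -0.66 (adjusted p 0.0259). The set 204863_s_at was called at 8 h (-1.08, adjusted p 0.0425) and at 72 h (-1.92, adjusted p 0.000236). At 72 h the probe sets separated: 204863_s_at read 8.44, 8.68 and 8.63, against 10.60, 10.05 and 10.85 in untreated cells, and 211000_s_at changed by -1.74 (adjusted p 4.69e-05). The other tested sets changed by -0.71 (212196_at), -0.67 (204864_s_at) and -0.32 (212195_at) at that time. Thus all 5 tested probe sets were lower at 72 h, and the fold drop ranged from 1.25 to 3.78. The sets 234474_x_at and 234967_at lay near zero signal in all groups and were not tested.

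LIFR, which pairs with IL6ST to bind LIF, fell with IL6R at 4 h. Its representative 225575_at read 9.44, 9.26 and 9.53 in untreated cells, 9.40 and 9.11 at 2 h, 8.61, 8.36 and 8.96 at 4 h, and 8.80, 8.58 and 8.61 at 8 h. It read 8.85, 8.38 and 8.93 at 16 h, 8.54, 8.27 and 8.73 at 24 h, and 9.27, 9.36 and 9.06 at 72 h. The arrays from 4 to 24 h lay below all untreated arrays, and those at 72 h overlapped with them. The log2 change was -0.77 ± 0.17 at 4 h (adjusted p 0.00613), -0.75 at 8 h (adjusted p 0.00316), -0.69 at 16 h (adjusted p 0.00369) and -0.90 at 24 h (adjusted p 0.000271). Without replicate 2 of the 4 h group the call at 4 h was lost (adjusted p 0.0601).

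LIFR was higher at 72 h than at 24 h by 0.72 on this probe set (adjusted p 0.0119), a call lost without replicate 2 of either group (0.0595 for 24 h, 0.0693 for 72 h). Without the arrays marked r, which leaves a single array at 24 h, the difference was 0.96. The other probe sets had no call between 72 and 24 h. The set 225571_at was still lower at 72 h, at 8.08, 8.10 and 8.17 against 8.73, 8.70 and 9.05 in untreated cells (-0.71, adjusted p 0.0018). With the mean of all LIFR probe sets, the change from 24 h was 0.33 (adjusted p 0.119) and LIFR was lower at 72 h than in untreated cells by 0.43 (log2 change -0.43, adjusted p 0.0106). The set 227771_at fell by 0.63 at 16 h (adjusted p 0.0312) and by 0.95 at 24 h (adjusted p 0.00153). At 72 h its change of -0.53 was not called (adjusted p 0.0583), and it differed from 24 h by 0.41, also without a call (adjusted p 0.273). The set 205876_at was called only by the F test (adjusted p 0.0386), and its change at 72 h was -0.29 (adjusted p 0.211).

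OSMR, the receptor subunit for oncostatin M, differed from the other receptors in that none of its calls was a fall. Its representative 205729_at ranged from 10.06 to 11.47 over all arrays and was called neither by the F test (adjusted p 0.508) nor at any time. Its group means ran from 10.37 at 2 h to 11.06 at 8 h, and every treated group overlapped with the untreated arrays at 10.06, 10.88 and 10.78. With the experiment as a block, the gain of 0.48 at 8 h was called (adjusted p 0.0332). The other probe set, 1554008_at, read 9.10, 8.94 and 9.17 at 8 h, against 8.18, 8.89 and 8.46 in untreated cells, a gain of 0.56 (adjusted p 0.0172). At 72 h it was up by 0.51 (adjusted p 0.0172), with 1 array inside the untreated range. Its F test did not pass (adjusted p 0.0755).

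SOCS3, the feedback inhibitor that a STAT3 signal induces, had its highest group means at 0.5 and 1 h on its representative, with a wide spread between experiments. Its representative 227697_at read 8.32, 8.24 and 8.80 in untreated cells, 9.75, 10.89 and 9.14 at 0.5 h, 10.96, 9.88 and 8.21 at 1 h, and 8.08 and 8.10 at 2 h. From 4 to 72 h all arrays lay between 7.78 and 9.0. The F test over the time course called it (adjusted p 0.015). No single time did: the difference was 1.48 ± 0.45 at 0.5 h (adjusted p 0.535) and 1.23 at 1 h (adjusted p 0.419), where the SD of the 3 arrays was 1.38. Within experiments 1, 2 and 3 the gain at 0.5 h was 1.43, 2.66 and 0.34, and at 1 h 2.63, 1.64 and -0.59. With the untreated arrays of experiments 2 and 3 exchanged, the gains in these experiments were 2.09 and 0.91 at 0.5 h, and 1.07 and -0.03 at 1 h.

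Leaving out experiment 3, which was chosen after seeing the data, gave SOCS3 changes of 2.04 at 0.5 h (adjusted p 0.00732) and 2.14 at 1 h (adjusted p 0.00146). Without replicate 3 of the 1 h group alone, the change at 1 h was 1.96 (adjusted p 0.00883), and SOCS3 was lower at 4 h than at 1 h by 2.08 (log2 change -2.08, adjusted p 0.00124). The probe set 206359_at read 8.08, 8.27 and 7.13 at 0.5 h and 8.54, 8.01 and 6.88 at 1 h, in each case with experiment 3 lowest. It was at the floor of 5.64 on both arrays at 2 h, and its F test passed (adjusted p 0.0105) with no call at a single time. The set 206360_s_at varied by at most 0.40 between group means and was not called (F adjusted p 0.508), so the probe sets of SOCS3 disagree. The set 214105_at, near zero signal, was not tested.

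**Figure D4:**
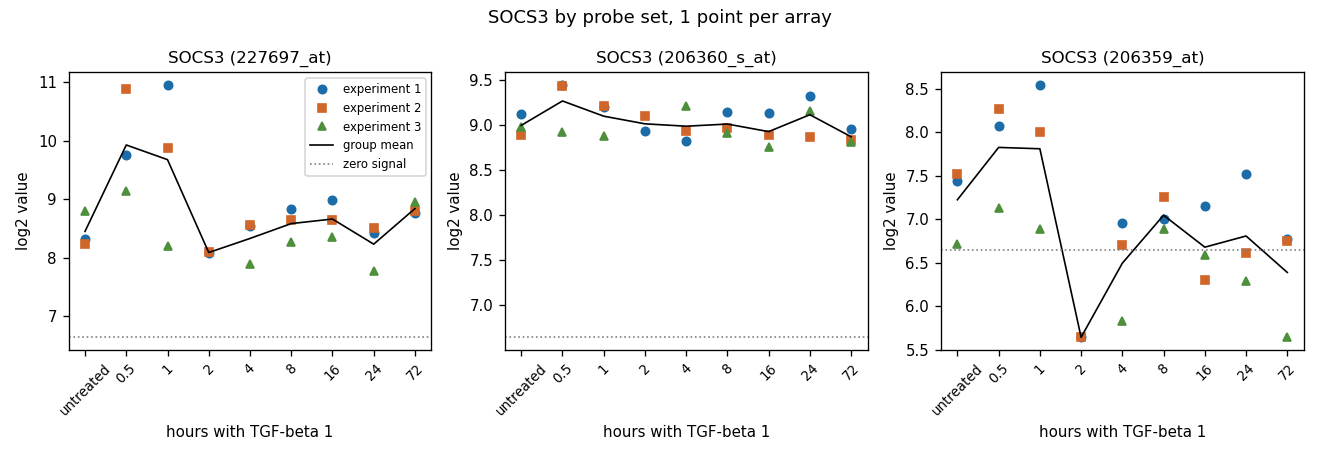
Log2 values of the 3 tested probe sets of SOCS3 by hours with TGF-beta 1, with 1 point per array, a line through group means and a dotted line at zero signal. In the panels of 227697_at and 206359_at, experiments 1 and 2 stand above their untreated arrays at 0.5 and 1 h while experiment 3 (triangles) is the lowest (each panel has its own vertical range).

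Differences between treated groups asked which changes were made when. Between 4 and 1 h limma called 0 member probe sets (8 at an unadjusted p under 0.05), beside 0.981 percent of all. With the experiment as a block it called 3, and without experiment 3 it called 8. Between 24 and 4 h 3 were higher and 1 lower, beside 17.8 percent: IL11 was higher by 3.94 ± 0.45 on 206924_at (adjusted p 7.32e-07) and by 2.00 on 206926_s_at (adjusted p 6.22e-09), and LIF by 1.06 (adjusted p 0.00509). IL6ST was lower by 0.59 on 212196_at (log2 change -0.59, adjusted p 0.0279). Between 72 and 24 h 2 were higher, IL6 and LIFR as given above, beside 7.11 percent, and 4 with the block. IL11 was lower at 72 h than at 24 h by 0.43 without a call (log2 change -0.43, adjusted p 0.638).

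Further ligands and receptors of the family were read from the same fit. OSM, CNTF and EBI3 were too low to test, and OSM, which encodes oncostatin M, the ligand of OSMR, lay near zero signal at 6.96 in untreated cells. Of 4 further receptors 3 were tested, and limma called 0 of them at 24 h (0 at an unadjusted p under 0.05). IL11RA, the receptor for IL-11, averaged 9.20 at 24 h, against 9.11 in untreated cells (adjusted p 0.797). CNTFR (-0.20) and IL27RA (0.42) were not called either.

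Of 11 genes for JAK kinases, STAT factors and adaptors, 2 were higher and 2 lower at 24 h, beside 32.2 percent of all genes called in either direction. At 72 h 3 were higher and 3 lower, beside 35.6 percent. SHC1, an adaptor towards the RAS pathway, rose by 0.84 at 16 h (adjusted p 3.6e-09), and JAK1, the main kinase bound to IL6ST, by 0.66 at 72 h (adjusted p 6.19e-05). STAT3, named here after its values were seen, averaged 12.11 at 24 h, against 12.07 in untreated cells (adjusted p 0.838), and was lower at 72 h by 0.39 (log2 change -0.39, adjusted p 0.00701). The median change of the 11 at 24 h was 0.04.

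Of 14 other inhibitors of the pathway, 2 were higher and 1 lower at 24 h, beside the same 32.2 percent, and 4 were higher and 3 lower at 72 h, beside 35.6 percent. SOCS2, best known for restraining growth hormone signalling, rose by 1.08 at 2 h (adjusted p 0.0483) and by 2.32 ± 0.26 at 16 h, its largest change (adjusted p 2.74e-07). SOCS6 rose by 1.27 at 72 h (adjusted p 4.28e-07), and PTPN2, a phosphatase of JAK and STAT proteins, fell by 0.72 at 24 h (adjusted p 8.6e-05). The median change of the 14 at 24 h was 0.03.

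Of 27 genes for acute-phase proteins and other STAT3 targets, 26 were on the array and 23 were tested. At 24 h 3 of these were higher and 7 lower, beside 32.2 percent of all genes, and at 72 h 3 were higher and 9 lower, beside 35.6 percent, with a median of -0.35. The largest falls were those of liver-type plasma proteins, which IL-6 is known to induce in hepatocytes. CP, the copper carrier ceruloplasmin, fell by 5.32 ± 0.33 at 72 h (adjusted p 2.02e-11), the fibrinogen chain FGB fell by 4.57 at 16 h (adjusted p 1.01e-09), and the chain FGG fell by 3.67 (adjusted p 3.01e-07). FGB averaged 7.68 at 16 h, against 12.25 in untreated cells. The only member of this list called at 0.5 and 1 h was JUNB, named after its values were seen, at 3.22 at 1 h (adjusted p 1.48e-08).

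Of 8 genes that shed receptors or control the stability of cytokine mRNA, 3 were higher and 1 lower at 24 h, beside 32.2 percent of all genes, and 5 were higher and 1 lower at 72 h, beside 35.6 percent. ZFP36, which binds AU-rich elements and speeds the decay of mRNA such as that of IL6, rose by 1.56 ± 0.28 at 1 h (adjusted p 0.00596). Its relative ZFP36L1 rose by 2.22 at 72 h (adjusted p 5.48e-08), whereas ZFP36L2 fell by 1.32 at 72 h (adjusted p 0.000144).

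**Figure D5:**
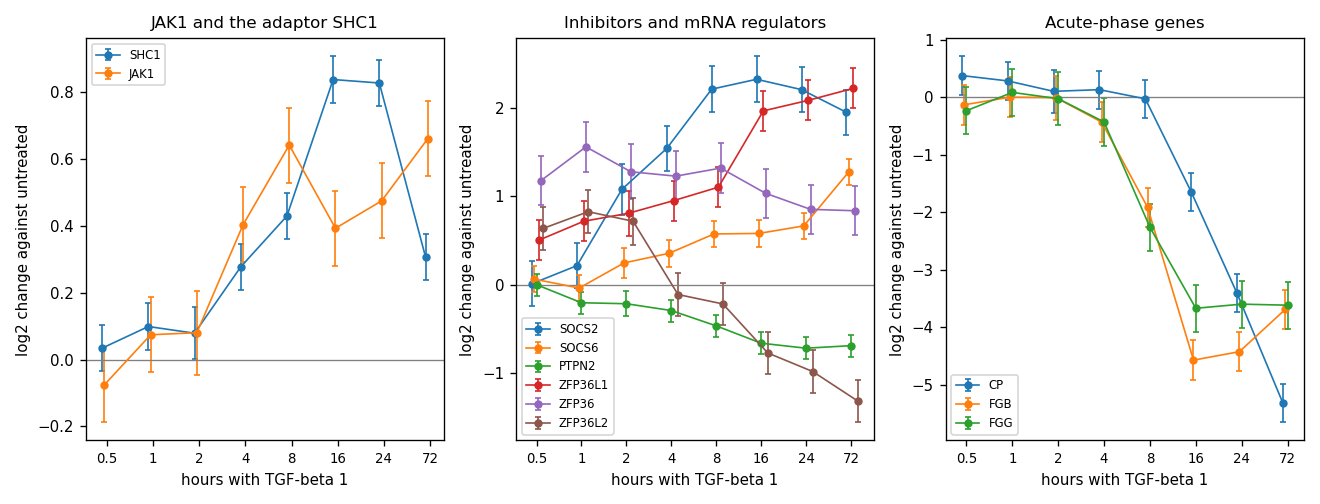
Log2 change against untreated cells (vertical axes) by hours with TGF-beta 1 for named genes of the lists around the pathway, with bars of 1 standard error from limma. SOCS2 reaches 2.32 at 16 h, and CP, FGB and FGG fall to between -3.62 and -5.32 by 72 h.

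The time courses most like those of the members were sought among 2704 genes with a called F test and a range of group means of at least 1. Likeness was Pearson's r over the 9 group means, which share the arrays of each group and are a description only. IL11 was most like PLAU (r 0.993), the urokinase plasminogen activator, PHLDB1 (0.989) and MFSD12 (0.984). LIF was most like CRCT1 (0.997), GALNT18 (0.992) and TRIO (0.990). IL6R was most like GNAI1 (0.958), LRIG1 (0.951), an inhibitor of ERBB receptors, and NDRG1 (0.943). SOCS3 had no close match: its nearest were PIM3 (0.711), ADM (0.707) and GAREM1 (0.682). PLAU averaged 13.67 at 24 h, against 11.04 in untreated cells.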

How the data were processed

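The deposited values are log10 values, which per the file headers are log10(max(x+50,0)+50), with x the trimmed mean difference between perfect-match and mismatch probes. Per the file headers these were made with readaffy at a scale constant of 1000, with about 20 percent trimmed, and quantile-normalized. They were converted to log2 here. Of all values, 1.23 percent lay at the floor. The actin 3'/5' ratio and each array's number of detected probe sets come from the deposited quality table, per the file headers. Scanner intensities were left aside.

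The test was limma (version 3.58.1, run in R 4.3.3 with data.table, version 1.17.8) by lmFit and eBayes with trend. All 26 arrays entered 1 model of 9 groups, which left 17 residual degrees of freedom, after 62 control probe sets had been set aside. Tests were two-sided, with Benjamini-Hochberg adjustment over all probe sets above the array median on at least 2 arrays. The fit was tested on simulated data. The p-values cover no more than the variation among arrays, and the number of arrays limits every precision. Figures used Python 3.11.15 with matplotlib 3.10.9.

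The labels' replicate number is that of the experiment. Deviations from group means correlated at a median r of 0.12 within experiments (100 pairs) and -0.06 between them (200 pairs). The block is therefore given where it changes a call. Untreated array 2 correlated best with experiment 3 (median r 0.23), and the array numbers in the deposited column names of these 2 arrays also follow the exchanged order. Gains within experiments 2 and 3 therefore rest on the labels' numbering, and an exchange of untreated numbers 2 and 3 was also tried.

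Members and lists were chosen with earlier results of these data known. The text names all 9 genes, from each list up to 3 genes with the largest called change and no overlap of arrays, and for up to 4 members the 3 most similar genes. Some genes that meet this rule are left out of the text and figures. Alternatives covered the block, filters, normalization, offset, eBayes settings, summaries per gene, a stricter threshold, the second deposited table and leaving out each array.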

Additional observations from a re-analysis of the deposited data

How the results depend on the processing

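No result reversed. Among single called changes of members, 1159 values under alternatives stayed past the threshold and 57 did not, mostly of IL6R and IL6ST at 24 and 72 h. Counts of member probe sets changed were within 1.5 times of those reported in 456 cases and moved in 47, and for moved counts the cause was not tested unless fewer features or arrays were in the fit. With the replicate block, the count was 2 at 2 h, 3 between 1 and 4 h and 4 between 24 and 72 h. With untreated numbers 2 and 3 exchanged in the replicate block, chosen after seeing the data, these were 2, 2 and 4. With 1 probe set per gene, where 9 features stand for 22, the 4, 8, 16, 24 and 72 h counts were 3, 4, 5, 6 and 6, with 2 between 4 and 24 h and 7 over the time course. With averaged probe sets of each gene they were 3, 4, 5, 5, 7, 2 and 7 in the same order, and 1 between 24 and 72 h. At an adjusted p under 0.01 the 4, 8, 24 and 72 h counts were 3, 6, 7 and 9, with 0 between 24 and 72 h. Between 24 and 72 h the count was 1 under the stricter filter and 4 with only the compared groups in the fit. Leaving out the 3 arrays marked r, chosen after seeing the data, keeps a single array at 24 h, so its counts involving 24 h are not given. Without experiment 3, also chosen after seeing the data, the count was 1 at 0.5 h, 3 at both 1 and 2 h, 8 between 1 and 4 h and 1 between 24 and 72 h. Leaving out each array in turn gave 0 to 1 (1 h), 1 to 2 (2 h), 3 to 5 (4 h), 7 to 14 (8 h), 7 to 13 (16 h), 9 to 14 (24 h), 10 to 14 (72 h), 0 to 5 between 1 and 4 h, 3 to 5 between 4 and 24 h, 0 to 4 between 24 and 72 h and 15 to 18 over the time course. Median centring shifted the median of all probe sets by at most 0.0091 (log2). Most groups had 3 arrays, which limits the precision of every value, and the offset compresses changes of weak signals.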
